A study of Mus musculus with 48 samples.

Results

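Livers of M mice taken 10 days after induction were compared with livers of other M mice taken 4 days after it, in ribosome-protected fragments (RPFs, pieces of mRNA that a ribosome covered during nuclease digestion) and in cytoplasmic RNA of the same lysates. The comparison was made of the libraries whose titles name Myc at either day, which are 12 of the 48 libraries of the series and come from 6 of its 24 mice, with 3 mice at each day. The 12 libraries of the 6 WT mice of the same days were set beside them, so that the change of each gene over these days could be read with and without the transgene. M mice carried R26-LSL-MYC, a MYC transgene at the Rosa26 locus kept silent by a stop cassette between loxP sites, and the labels give WT mice as Wild-type. All were males aged 2 to 4 months and above 20 g on a mixed C57BL/6 background, and all of them, WT included, received AAV8.TBG.PI.Cre.rBG, a virus in which the hepatocyte promoter TBG drives Cre. Cre was thus aimed at hepatocytes, whereas the lysates came from ground whole liver, and the share of hepatocytes that recombined was not measured in these files. Mice of both days were collected at the same time after injections on different dates, so day here means time since the virus and not the date of collection.

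MYC is a transcription factor that binds DNA together with MAX at E-boxes with the core CACGTG, and it is best known for raising ribosome production, nucleotide synthesis and entry into the cell cycle. Hepatocytes also move between a fasted state, in which glucose is made and released, and a fed state, in which insulin represses those genes and sugar is turned into fat. A gene's RPF count follows both its mRNA and how densely ribosomes occupy it, and translational efficiency (TE) is the RPF count relative to the RNA count.

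The promoters of 3 genes that fell in M and 1 that rose are printed because each holds a short element tied to insulin or to MYC. CAAAACA, or TGTTTTG on the other strand, is the core of the insulin response sequence known from the Igfbp1 and G6pc1 promoters, and CACGTG, which reads the same on both strands, is the E-box. Each window is 280 bases of RefSeq sequence on GRCm38.p6, written along the strand of the gene, with every match of either element in capitals. All windows named here were searched for both. The windows are Igfbp1 at chr11:7197537-7197816 (plus strand), G6pc1 at chr11:101367466-101367745 (plus strand), Irs2 at chr8:11008900-11009179 (minus strand) and Wdr43 at chr17:71615965-71616244 (plus strand).
Igfbp1: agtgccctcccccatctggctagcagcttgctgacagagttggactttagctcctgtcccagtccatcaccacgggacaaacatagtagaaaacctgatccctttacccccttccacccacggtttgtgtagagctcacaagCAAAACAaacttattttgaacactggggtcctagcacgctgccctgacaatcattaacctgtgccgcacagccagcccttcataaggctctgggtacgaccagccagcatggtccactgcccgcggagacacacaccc
G6pc1: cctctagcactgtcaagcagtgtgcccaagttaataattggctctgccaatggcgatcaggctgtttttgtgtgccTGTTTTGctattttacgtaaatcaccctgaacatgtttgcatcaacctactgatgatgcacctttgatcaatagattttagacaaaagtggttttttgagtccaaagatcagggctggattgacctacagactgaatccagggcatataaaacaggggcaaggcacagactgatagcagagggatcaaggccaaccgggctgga
Irs2: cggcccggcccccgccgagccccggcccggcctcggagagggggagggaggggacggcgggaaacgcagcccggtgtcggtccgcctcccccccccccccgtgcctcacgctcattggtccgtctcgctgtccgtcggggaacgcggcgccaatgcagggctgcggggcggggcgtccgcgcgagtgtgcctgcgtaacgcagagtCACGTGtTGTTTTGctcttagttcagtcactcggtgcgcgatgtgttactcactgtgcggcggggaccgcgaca
Wdr43: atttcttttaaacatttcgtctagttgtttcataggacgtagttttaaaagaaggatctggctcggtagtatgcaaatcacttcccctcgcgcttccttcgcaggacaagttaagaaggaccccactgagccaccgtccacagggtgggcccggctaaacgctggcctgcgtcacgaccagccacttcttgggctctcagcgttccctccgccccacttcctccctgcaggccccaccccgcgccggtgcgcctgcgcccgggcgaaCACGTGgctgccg
The match began 108 bases before the annotated start in Igfbp1, 174 bases before it in G6pc1 and 37 bases before it in Irs2, and at base 18 of the transcript in Wdr43. Irs2 also holds an E-box, which begins 44 bases before its start and does not overlap the insulin response core. In windows of this length, the insulin response core was found in 5.97% of 32851 RefSeq promoters and in 4.45% of the 11451 promoters of genes tested for an RPF change in M, and the E-box in 6.79% and 9.43%. The windows of Pck1, Slc25a25, Arrdc3, Angptl8, Nop56, Gnl3 and Ppan held neither element. The promoters were chosen after the values of these genes had been seen, and a match is a run of letters rather than a binding site.

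RPF libraries of M and WT held 9742197 to 13111401 counts and RNA libraries 4537343 to 6540116. M day 10 mouse 3 differed more from the other M mice of its day than these did from each other. Values per mouse are CPM, which are counts scaled by TMM to a library of a common size, in the order mouse 1, 2 and 3. The root mean square difference in log2 CPM over 10971 genes was 0.22 between M day 10 mice 1 and 2, and 0.42 and 0.44 between these and mouse 3. In RNA, over 12033 genes, it was 0.31, against 0.40 and 0.42. Pairs in the other groups came close to this, at up to 0.41 in RPFs (M day 4 mice 2 and 3) and 0.41 in RNA (WT day 10 mice 1 and 2). Chi-square per gene between 2 mice of a group was 4.5 to 47.4, so no library was a copy of another within sampling noise. Counts of calls are given below also without M day 10 mouse 3, where day 10 has 2 mice and 3.74% of 11463 genes were called higher and 4.2% lower in RPFs. That mouse was singled out from these same libraries, so calls made without it are not a separate test.

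The 10 hepatocyte markers summed to 78043 to 97308 RPF CPM in M at day 4 and to 70226 to 77239 at day 10, and to 116580 to 144180 over the WT mice. Every one of the 10 was present in every M and WT library, as the labelled tissue requires. None of the 10 was called between the days in M RPFs (median log2 change -0.19, against 0.01 over all genes) or RNA (median -0.24, against 0.01). Without M day 10 mouse 3, 2 of them, Alb and Trf, were called lower in RPFs (4.2% over all genes). In whole liver, fewer hepatocytes and less of an mRNA per hepatocyte cannot be told apart.

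The counts of Myc are those on the mouse gene. The sequence that the transgene carries is not given in the sources used here, so how many transgene reads these counts hold is not known. Myc had 59.3, 55.2 and 59.1 RPF CPM in M at day 4 and 41.4, 44.8 and 54.2 at day 10, against 2.26 to 17.1 in the WT mice. Every M mouse was above every WT mouse in RPFs, whereas in RNA the M values (27.1, 28.5 and 32.3, then 19.4, 20.5 and 24.6) overlapped those of WT (20.7 to 40.6), with 2 of the day 10 mice below the lowest WT mouse. Between the days, the RPFs of Myc in M had a log2 change of -0.29 ± 0.11 (SE; adjusted p = 0.321), and the day 10 mice all lay below the day 4 mice. Without M day 10 mouse 3 the change was -0.41 and was called (adjusted p = 0.0386, edgeR).

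To ask what changed in M liver between the days, the counts were fitted with edgeR's quasi-likelihood test, and a gene is called here when its p, adjusted over all genes tested, is under 0.1. In RPFs, 50 of 11336 genes were called higher at day 10 (0.441%) and 53 lower (0.468%). In RNA, 24 of 11181 were called higher (0.215%) and 63 lower (0.563%). With all mice, more genes were called in WT over the same days, with 236 higher (2.17%) and 248 lower (2.28%) of 10899 in RPFs, and 120 higher (1.09%) and 136 lower (1.23%) of 11026 in RNA. The 3 mice of one day lay wholly above or below those of the other for all 103 RPF calls and all 87 RNA calls, a pattern that 1222 genes higher and 1143 lower of the 11336 tested in RPFs had, while 0.909% of the 11336 were called. In RNA 808 genes higher and 887 lower of 11181 had it, while 0.778% were called. RPFs and RNA of the same mice shared 29 genes called lower (54.7% of those in RPFs and 46% of those in RNA) and 8 called higher (16% and 33.3%).

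The number of calls depended on single mice. M day 10 mouse 3 moved it most. Without it, 429 genes were called higher (3.74%) and 482 lower (4.2%) in RPFs, and 136 higher (1.2%) and 213 lower (1.87%) in RNA, with all 103 and 87 calls among them. M then had more calls than WT in both library types. Leaving out another mouse lowered the RPF count from 103 to 2 (M day 4 mouse 1), 11 (M day 4 mouse 2), 11 (M day 4 mouse 3), 6 (M day 10 mouse 1) and 19 (M day 10 mouse 2), and the RNA count from 87 to 15, 48, 28, 19 and 52 in the same order. The share of RPF calls that were higher, 48.5% here, was 76.5% of 213 with library totals in place of TMM scaling and 35.6% of 73 with DESeq2's size factors. Of the genes named here, G6pc1 and Trp53inp1 were called in RPFs and in RNA whichever mouse was left out. The RNA calls of Igfbp1, Irs2, Pck1, Slc25a25, Arrdc3, Adgrf1, Elovl3, Acacb, Cyp2c67, Orm3 and Serpinb1a also held each time, while the RPF calls of Adgrf1 and Irs2 were lost without M day 4 mouse 1 and Arrdc3, Cdkn1a, Acacb, Me1, Hsd3b5, Cyp2c67, Orm3 and Gabbr2 were called in RPFs only with all mice or without M day 10 mouse 3. The RPF calls of Pck1 and Slc25a25 were lost without any 1 of the M day 4 mice or M day 10 mouse 1, that of Igfbp1 without M day 4 mouse 1 or 2 or M day 10 mouse 1 or 2, and that of Elovl3 without M day 4 mouse 1 or 3 or M day 10 mouse 1. Those of Angptl4, Sik1, Nr0b2, Eif5b, Ifit1, Cyp2c68 and Cyp2c69 held in 1 of the 6 fits that left out a mouse. Those of Angptl8 and Nfil3 held in 2 of the 6.

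G6pc1 and Pck1, enzymes of hepatic glucose production, fell in M and in WT. G6pc1 encodes the glucose-6-phosphatase that releases glucose from the hepatocyte. It had 829, 809 and 846 RPF CPM in M at day 4 and 206, 186 and 141 at day 10, so the day 10 mean was 4.66-fold lower. The days lay far apart, with a log2 change of -2.21 ± 0.14 (SE, n = 3 mice a day; adjusted p = 0.00203), and the RNA changed by the same amount (-2.21 ± 0.10; adjusted p = 5.18e-07). Pck1, the enzyme that commits carbon to gluconeogenesis, had 1832, 1705 and 1408 RPF CPM at day 4 and 611, 740 and 419 at day 10 (log2 change -1.47 ± 0.21; adjusted p = 0.0471). In WT, G6pc1 went from 662, 1021 and 864 to 253, 206 and 202 and Pck1 from 2539, 3962 and 3027 to 1051, 1153 and 1160, and neither difference between M and WT was called (difference of the log2 changes -0.28 ± 0.23 and 0.02 ± 0.27). Of the 26 genes of the glycolysis and gluconeogenesis list, G6pc1 and Pck1 were the 2 called lower in M RPFs and none was higher (over all genes, 0.468% and 0.441%; median log2 change -0.08), and Pklr, the liver pyruvate kinase, was a further one in RNA, at -0.57, while 3 were called lower and none higher in WT RPFs (2.28% and 2.17%). Leaving out M day 10 mouse 3, 3 were called lower and 1 higher in M RPFs (over all genes, 4.2% and 3.74%).

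Igfbp1 and Irs2, which insulin represses in liver, fell too. Igfbp1, a secreted binding protein of insulin-like growth factors, had 191, 184 and 99.0 RPF CPM in M at day 4 and 9.80, 15.7 and 27.9 at day 10, an 8.87-fold lower mean (log2 change -3.13 ± 0.41; adjusted p = 0.0391). M day 10 mouse 3 was the highest of its day, and without it the change was -3.62. Irs2, which links the insulin receptor to its kinases, had 53, 49.9 and 37.2 at day 4 and 4.87, 7.92 and 10.5 at day 10 (log2 change -2.58 ± 0.26; adjusted p = 0.0259), a 6.02-fold lower mean. Both sets of mice were clear of each other. The WT changes were -2.21 and -2.15, and the differences between M and WT were -0.95 ± 0.69 and -0.46 ± 0.47.

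Other metabolic genes were named by the rule for the 10 largest changes in each direction and were not tested as a group. Slc25a25, a carrier of ATP-Mg and phosphate in the mitochondrial membrane, had 285, 308 and 239 RPF CPM at day 4 and 51.0, 33.9 and 85.4 at day 10 (log2 change -2.27 ± 0.31; adjusted p = 0.0443). Angptl4, an inhibitor of lipoprotein lipase made in fasting, had a log2 change of -1.75 ± 0.30 (adjusted p = 0.0886), and Sik1, a kinase induced by cyclic AMP, one of -1.65 ± 0.31 (adjusted p = 0.0956). Rises were seen in Angptl8, a secreted protein that feeding induces, and in Nr0b2, the nuclear receptor SHP, a corepressor that bile acid signalling induces. Angptl8 had 3.44, 5.59 and 3.58 at day 4 and 26.4, 13.3 and 28.8 at day 10, a 5.44-fold higher mean (log2 change 2.44 ± 0.33; adjusted p = 0.0433). Arrdc3, an arrestin-domain protein, rose as much, from 10.7, 17.8 and 12.3 to 95.5, 82.2 and 43.6 (log2 change 2.45 ± 0.31; adjusted p = 0.0358), and M day 10 mouse 3 was the lowest of its day. For each of these genes the WT mice moved the same way, by -1.94 for Slc25a25, -2.11 for Angptl4, -1.83 for Sik1, 2.04 for Angptl8, 0.82 for Nr0b2 (not called) and 1.83 for Arrdc3, and no difference between M and WT was called. Large changes in M were also called outside this set. In RPFs they included Ptgds (3.4), Myt1l (1.97) and Nat8f3 (-2.48), called in 2, 1 and 3 of the 6 fits that left out a mouse. In RNA they included Mmp12 (3.8), Nr4a1 (-2.04) and Lpin1 (-1.85).

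**Figure D1:**
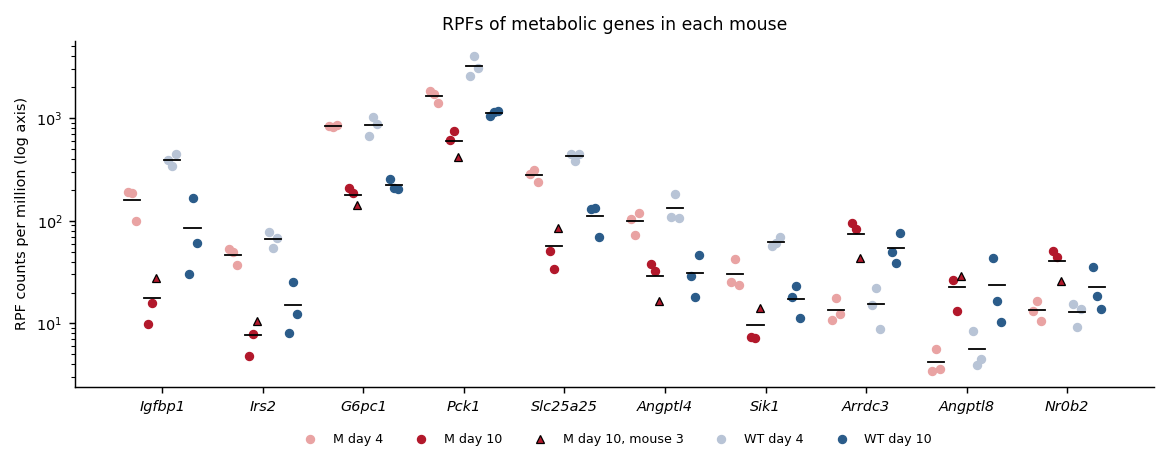
RPF CPM of 10 metabolic genes in each mouse, on a log axis, for M and WT at day 4 and day 10 (points, mice; triangle, M day 10 mouse 3; bar, mean of 3 mice). In M, 7 of the 10 genes are lower and 3 are higher at day 10 with no overlap between the days, and WT moves in the same directions. For genes named by the size of their change in M, lack of overlap was a condition of naming.

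Of the 53 genes called lower in M RPFs, 20 were also called lower in WT, which is 37.7% of the M calls and 8.06% of the WT calls, and 2 were called higher in WT. Over all genes tested in WT RPFs, 2.28% were called lower and 2.17% higher. Of the 50 called higher in M, 3 were called higher in WT and 1 lower. Without M day 10 mouse 3 all of these M calls were kept, but the M lists were longer and the shares in common with WT were smaller. In that fit, 482 genes were called lower in M, of which 52 were called lower in WT (10.8% of the M calls and 21% of the WT calls) and 54 higher. Of the 414 tested in WT, 210 had a negative WT change. Of the 429 then called higher in M, 15 were called higher in WT (3.5% and 6.36%) and 6 lower. M and WT have no mouse in common.

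Trp53inp1, a stress protein induced by p53, was the other gene called whichever mouse was left out. It had 79.2, 80.2 and 75.5 RPF CPM in M at day 4 and 25.1, 24.5 and 29.4 at day 10, a 2.97-fold lower mean with little spread at either day (log2 change -1.56 ± 0.09; adjusted p = 0.00203). The RNA went from 416, 381 and 400 to 158, 162 and 157 (-1.32 ± 0.09; adjusted p = 2.7e-05), and the WT RPF change was -1.16. Cdkn1a, the p53-induced inhibitor of cyclin-dependent kinases, had 52.4, 41.0 and 38.6 at day 4 and 17.9, 16 and 22.1 at day 10 (log2 change -1.23 ± 0.16; adjusted p = 0.04). In WT it started higher, at 76.8, 72.4 and 73.6, and ended as low, at 18.3, 9.54 and 13.4. Its fall was therefore smaller in M than in WT, with a difference of 1.18 ± 0.27 (adjusted p = 0.0798), a call kept only when WT day 10 mouse 1 or 2 or M day 10 mouse 2 or 3 was the mouse left out.

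Of 28 tested genes of a list of p53 targets and apoptosis genes, 3 were called lower in M RPFs (Cdkn1a, Trp53inp1 and the DNA polymerase Polk at -0.75) and none higher (over all genes, 0.468% lower and 0.441% higher), with a median of -0.18, against 10 lower and 1 higher in WT (2.28% and 2.17%) with a median of -0.53. With M day 10 mouse 3 left out, 8 were called lower in M (4.2% over all genes). In the difference between M and WT, 2 were called higher, Cdkn1a and Trp53 itself (0.75), and none lower (over all genes, 0.633% and 0.546%), and the median was 0.39, against -0.01 over all genes. This count was 4 higher and none lower without M day 10 mouse 3 (2.6% and 3.45%), with a median of 0.26. Mdm2, the ubiquitin ligase that p53 induces against itself, had a log2 change of -0.58 in M (adjusted p = 0.141) and was called in WT at -0.99.

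The ribosome biogenesis genes called in M were higher at day 10. All 52 genes of the list, which make, modify and assemble ribosomal RNA in the nucleolus, were tested. In M RPFs 4 were called higher and none lower (over all genes, 0.441% and 0.468%), 51 had a positive log2 change, and the median was 0.30, against 0.01 over all genes. In WT 1 was called higher and 3 lower (2.17% and 2.28%), with a median of -0.14. The difference between M and WT was called for 10 of the 52, all of them higher in M (over all 11530 genes, 73 were called higher, 0.633%, and 63 lower, 0.546%), with a median of 0.45. Without M day 10 mouse 3 it was called for 20 higher and 1 lower, Npm1, the nucleolar chaperone nucleophosmin, at -0.81 (over all genes, 2.6% and 3.45%).

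Nop56, a core protein of the particles that methylate ribosomal RNA, had 33.0, 37.1 and 40.7 RPF CPM in M at day 4 and 63.3, 55.9 and 53.2 at day 10. All day 10 mice were above all day 4 mice, with a log2 change of 0.65 ± 0.11 (adjusted p = 0.0798), while WT stayed at 22.7, 18.9 and 21.9 and then 19.5, 17.0 and 16.6. The difference between M and WT was 0.89 ± 0.16 (adjusted p = 0.032), and Nop56 was the member also called in M RNA (0.51 ± 0.10; adjusted p = 0.0595). Gnl3, the nucleolar GTPase nucleostemin, rose from 40.5, 41.1 and 47.2 to 60.3, 64.2 and 62.5 (0.55 ± 0.09; adjusted p = 0.0719), and its difference from WT was 0.79 ± 0.13. Ppan, a factor of the large subunit, rose from 19.5, 17.9 and 17.6 to 31.2, 24.1 and 27.9 (0.61 ± 0.11; adjusted p = 0.0956), with a difference of 0.96 ± 0.18. Wdr43, named as the remaining called member, had a log2 change of 0.50 ± 0.09 (adjusted p = 0.0876), and the other members called in the difference, also named after their values were seen, were Nop2, Nop16, Rrp15, Wdr75, Heatr1 and Tsr1.

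**Figure D2:**
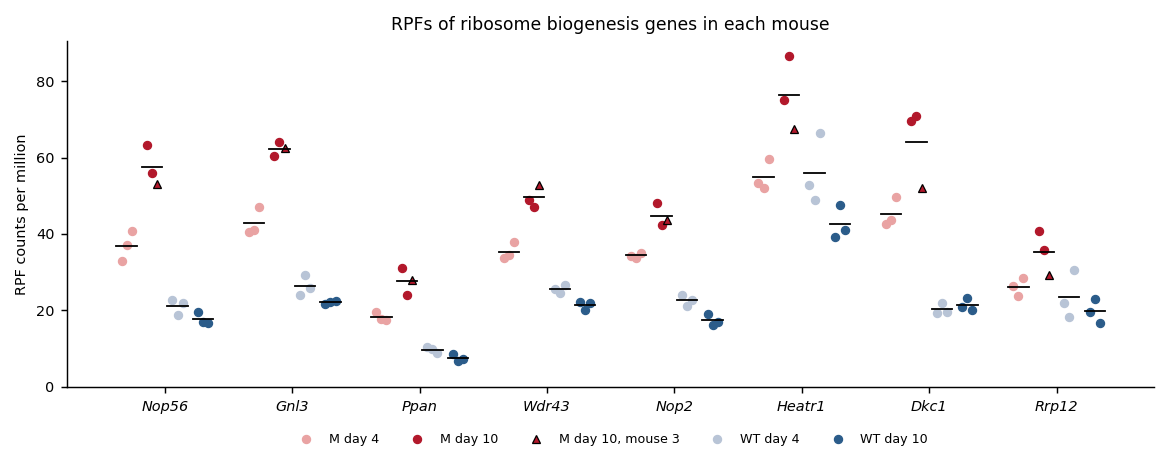
RPF CPM of 8 ribosome biogenesis genes in each mouse of M and WT at day 4 and day 10, on a linear axis from 0 (points, mice; triangle, M day 10 mouse 3; bar, mean of 3 mice). In each of the 8 genes the M mice of day 10 lie above those of day 4, and Wdr43, Nop2, Heatr1, Dkc1 and Rrp12 were chosen for the plot after their values were seen. The rule that covers Nop56, Gnl3 and Ppan required that the days did not overlap.

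Each M day 10 mouse had the same sign over this list, mouse 3 included. The list's median log2 RPF difference from the M day 4 mean was 0.32, 0.24 and 0.25 in the M day 10 mice 1, 2 and 3, and -0.10, -0.04 and -0.21 in the WT day 10 mice from the WT day 4 mean. Without mouse 3, 19 of 52 were called higher in M RPFs and 7 in RNA, again with none lower (over all genes, 3.74% and 1.2% were called higher). With any other M mouse left out, however, the RPF calls of Nop56, Gnl3 and Ppan were lost, and their differences from WT were lost without M day 4 mouse 1. The differences of Nop56 and Ppan were lost without WT day 4 mouse 1 as well, and that of Ppan also without WT day 10 mouse 3 or M day 10 mouse 1.

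With all mice, related lists of growth genes had at most 1 call in M RPFs, where 0.441% of all genes were called higher and 0.468% lower. Of 30 translation factors, the initiation factor Eif5b, which joins the ribosomal subunits, was called higher in M RPFs (0.59 ± 0.08; adjusted p = 0.0471), at 85.0, 93.8 and 96.7 and then 142, 136 and 132. In WT 4 of the 30 were called higher and none lower (2.17% and 2.28% over all genes). Of 77 mitochondrial ribosomal proteins, Mrpl19 was called higher in M (0.53), and none was called lower (45 had a positive and 32 a negative log2 change). No member of the MYC network (14 tested), the aminoacyl-tRNA synthetases (22), nucleotide and one-carbon synthesis (27), polyamine synthesis (9), the proteasome (34) or the CCT chaperonin (8) was called in M RPFs in either direction, with medians between -0.01 and 0.09. Leaving out M day 10 mouse 3, 4 translation factors were called higher and 3 lower, 3 aminoacyl-tRNA synthetases and 3 mitochondrial ribosomal proteins higher, 2 nucleotide genes higher and 2 lower, 1 polyamine gene higher and 1 lower, and 1 gene of the MYC network higher and 2 lower, and none of the proteasome or the CCT chaperonin (over all genes, 3.74% higher and 4.2% lower).

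Cell cycle genes set M day 10 mouse 3 against the other day 10 mice. Top2a, the topoisomerase that untangles chromosomes in mitosis, had 30.9, 39.5 and 40.9 RPF CPM at day 4 and 13.3, 14.5 and 71.3 at day 10. Mki67, the proliferation marker Ki-67, had 21.2, 34.6 and 31.6 and then 11.1, 9.45 and 38. In both genes, mice 1 and 2 of day 10 lay below every day 4 mouse and mouse 3 lay above every one. Over the 52 tested G2/M genes the median log2 RPF difference from the M day 4 mean was -0.82, -0.91 and 0.76 in the day 10 mice, and over the 42 tested S phase genes -0.50, -0.38 and 0.33. The RNA followed, at -0.38, -0.50 and 0.64 for G2/M.

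With all mice no S or G2/M gene was called in M RPFs, with list medians of -0.13 and -0.07. Without mouse 3, 35 of 52 G2/M genes were called lower and 1 higher (median -1.14), and 13 of 42 S phase genes lower and 2 higher (median -0.51), against 4.2% lower and 3.74% higher over all genes. The replicative helicase subunit Mcm5 then had a log2 change of -1.17 and the mitotic kinase Cdk1 one of -1.06 (adjusted p = 0.0158 and 0.00846), against -0.45 and -0.17 with all mice. In WT the same genes were low at both days, with 2.58 to 11.0 RPF CPM of Top2a and 1.13 to 5.59 of Mki67. The number of cycling cells and the expression per cell cannot be told apart in these libraries. Mouse 3 was singled out from these same data, so the calls and p-values without it are not a separate test of a fall.

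**Figure D3:**
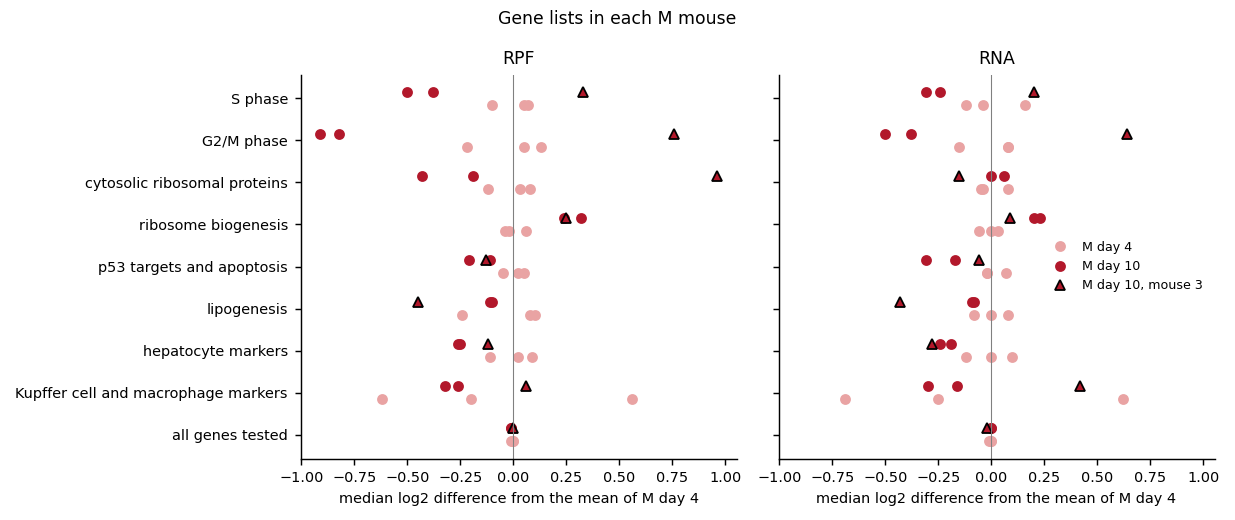
Median log2 difference of each M mouse from the M day 4 mean, over the genes of 8 lists and over all genes tested, in RPFs (left) and RNA (right); circles are mice, and triangles are M day 10 mouse 3. For S phase, G2/M and ribosomal protein genes the triangle in RPFs lies at 0.33, 0.76 and 0.96, opposite to M day 10 mice 1 and 2, and for ribosome biogenesis all 3 day 10 mice lie at 0.24 to 0.32.

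Cytosolic ribosomal protein genes showed the same split in RPFs only. Their mRNAs carry a terminal oligopyrimidine motif through which growth signals set how many ribosomes they engage. The 84 genes of the list with counts summed to 9067 to 10458 RPF CPM in the M day 4 mice and to 8556, 7373 and 19035 in those of day 10, whereas in RNA the day 4 sums of 30679 to 33706 overlapped the day 10 sums of 28639 to 33389. Elongation factor Eef2, of the same mRNA class, had 454, 362 and 502 RPF CPM and then 274, 247 and 1379. Of 80 members none was called in M RPFs (median 0.29), but without mouse 3 the direction turned, with 29 lower and 1 higher (median -0.32; over all genes, 4.2% and 3.74%). In WT 65 of 80 were called higher at day 10 and none lower (median 0.64; over all genes, 2.17% and 2.28%), with sums of 5773 to 7151 and then 9003 to 10246. With all 24 mice in the fit, 35 genes among all 10899 were called higher in WT, so not all of these 65 calls held there. The difference between M and WT was called for none of the 80 with all mice (median -0.37) and, without M day 10 mouse 3, for 74 lower and 1 higher (median -0.89), where the background was 401 of 11613 genes lower (3.45%) and 302 higher (2.6%).

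With all mice, the lipogenesis genes called in M were lower at day 10 and those called in WT were higher. When M day 10 mouse 3 was left out, 3 were called lower and 2 higher in M, in RPFs (over all genes, 4.2% and 3.74%) and in RNA (1.87% and 1.2%). Acacb, the acetyl-CoA carboxylase that restrains fat oxidation, had 339, 258 and 330 RPF CPM in M at day 4 and 176, 203 and 191 at day 10 (log2 change -0.69 ± 0.12; adjusted p = 0.092). Me1, which makes NADPH for fatty acid synthesis, had 538, 457 and 604 and then 346, 326 and 327 (-0.66 ± 0.11; adjusted p = 0.0845). Acly, which splits citrate into acetyl-CoA, had 826, 533 and 721 and then 498, 447 and 466, and was not called (-0.54 ± 0.15; adjusted p = 0.201), but in WT it rose from 463, 442 and 511 to 943, 1049 and 687. The difference between M and WT was -0.96 ± 0.20 for Acacb, -1.03 ± 0.22 for Me1 and -1.48 ± 0.23 for Acly (adjusted p = 0.0619, 0.0674 and 0.0305). In the list of 20 lipogenesis genes, 2 were called lower in M RPFs (0.468% over all genes) and 3 higher in WT RPFs (2.17%), with medians of -0.23 and 0.25, and in RNA 3 of 19 were called lower in M (0.563%) and 6 of 20 higher in WT (1.09%). Fasn, the fatty acid synthase, had log2 RPF changes of -0.09 in M and 0.83 in WT, neither of them called, while its RNA was called higher in WT (0.99; adjusted p = 0.0233), whichever WT mouse was left out. The RPF difference of Acly was lost without M day 4 mouse 1 or WT day 4 mouse 1. Those of Acacb and Me1 were lost also without M day 4 mouse 3, WT day 10 mouse 1, WT day 10 mouse 3 or M day 10 mouse 1, and that of Me1 in addition without WT day 4 mouse 2, WT day 4 mouse 3 or M day 10 mouse 2. In RNA the differences of Acacb and Acly (-1.16 and -1.33) held whichever mouse was left out. Of 24 cholesterol synthesis genes, none was called in M RPFs (median 0.10) and 6 rose in WT (median 0.31; 2.17% over all genes). The difference between M and WT was called for none of the 24 in RPFs (median -0.24). In RNA it was called for 3, all lower in M (0.735% over all genes). With M day 10 mouse 3 left out, 3 were called higher and 1 lower in M RPFs (over all genes, 3.74% and 4.2%).

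A few male-biased genes were called lower in M. Elovl3, a male-biased elongase of very long fatty acids, had 205, 159 and 184 RPF CPM at day 4 and 75.8, 89.8 and 77.1 at day 10, a 2.26-fold lower mean (log2 change -1.16 ± 0.12; adjusted p = 0.0259). Hsd3b5, a male-biased steroid dehydrogenase, went from 168, 169 and 183 to 122, 125 and 115 (-0.51 ± 0.08; adjusted p = 0.0719), and differed from WT by -0.68 ± 0.15 (adjusted p = 0.072). That difference was kept only without M day 10 mouse 3, WT day 4 mouse 2 or WT day 10 mouse 2. Of 18 male-biased genes, 2 were called lower in M RPFs (0.468% over all genes) and 3 in RNA (0.563%), where Slco1a1 (-0.85) and Gstp1 (-0.82) joined Elovl3. In WT 2 were called lower too in RPFs (2.28%) and 4 in RNA (1.23%), and the list medians were -0.19 in M and -0.26 in WT in RPFs, and -0.28 and -0.33 in RNA. In M RPFs without M day 10 mouse 3, 7 were called lower and 2 higher (median -0.14; over all genes, 4.2% and 3.74%). The female-biased list had 7 genes tested in RPFs and none called, and 1 higher without that mouse. In its RNA, Cyp3a41a was called higher (0.82), at 41.5, 36.6 and 43.4 and then 77.1, 82.8 and 53.6, but no RPF was counted on it in any M or WT library, so its reads may be split among near-identical Cyp3a genes.

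Of 54 cytochromes P450 tested, Cyp2c67, Cyp2c68 and Cyp2c69 were called lower in M RPFs and none higher (0.468% and 0.441% over all genes; median -0.13). Of 55 tested without M day 10 mouse 3, 6 were called lower and 4 higher (median -0.07; over all genes, 4.2% and 3.74%). Cyp2c67 had 234, 217 and 278 RPF CPM at day 4 and 103, 142 and 135 at day 10 (log2 change -0.93 ± 0.15; adjusted p = 0.0771), against 345, 314 and 308 and then 336, 270 and 336 in WT. The days were apart in M and overlapped in WT, with a difference of -0.91 ± 0.19 (adjusted p = 0.0619), which was kept only without M day 4 mouse 2, WT day 10 mouse 2 or M day 10 mouse 2 or 3, whereas in RNA the difference of -1.13 held whichever mouse was left out. Cyp2c68 and Cyp2c69 changed by -0.79 and -0.83 in M and differed from WT by -1.09 and -1.01. These genes lie side by side on chromosome 19 and share much of their sequence, so the counts cannot fully separate them. In RNA, Cyp2c37 and Cyp2c40 were also called lower, so that with Cyp3a41a 5 of 55 were lower and 1 higher (over all genes, 0.563% and 0.215%). The zone 3 list, genes of the hepatocytes around the central vein, had no call among 22 in M RPFs, with or without M day 10 mouse 3. The zone 1 list had G6pc1 and Pck1 lower among 20 (0.468% over all genes), and 2 lower and 3 higher without that mouse (4.2% and 3.74%).

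Of 24 acute phase genes, 15 were called lower in WT RPFs and none higher (median -1.13; over all genes, 2.28% lower and 2.17% higher), while in M 1 of 24, Orm3, was called higher and none lower (median -0.07; 0.441% and 0.468%). With the M day 10 mice 1 and 2 alone, 2 were called higher and 4 lower in M (median -0.15; over all genes, 3.74% and 4.2%). The RPF difference between M and WT was called for 6 of the 24, all higher in M (median 0.76; over all genes, 0.633% higher and 0.546% lower). Without M day 10 mouse 3 it was called for 12, again all higher (2.6% and 3.45%). Saa2, serum amyloid A, had 1291, 85.5 and 1322 RPF CPM in WT at day 4 and 13.7 to 52.5 at day 10, and in M 12.5 to 64.7 and 25.9 to 56.5. WT day 4 mouse 2 was far below the other mice of its day, and the M days overlapped. Orm3, an alpha-1 acid glycoprotein, rose in M from 2.85, 7.36 and 7.67 to 23.8, 24 and 17.9 (1.89 ± 0.31; adjusted p = 0.0801) and fell in WT from 2.40, 1.70 and 2.74 to 0.98, 0.19 and 0.45. Its difference was 3.87 ± 0.61 (adjusted p = 0.0305) and was lost without WT day 4 mouse 1. Orm1, Orm2 and Orm3 are near-identical, and reads of one could have been counted for another. Among 29 interferon-stimulated genes Ifit1 was called higher in M RPFs (0.81), at 8.96, 8.68 and 7.32 and then 16.3, 12.2 and 14.8, and the median of the list was 0.23. When M day 10 mouse 3 was left out, 5 of 30 were called higher and none lower (over all genes, 3.74% and 4.2%).

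The genes that fell in M and not in WT included Adgrf1, an adhesion G protein-coupled receptor. It had 15.7, 11.4 and 14.8 RPF CPM in M at day 4 and 3.89, 3.27 and 2.54 at day 10 (-2.09 ± 0.20; adjusted p = 0.0197), and 22.1 to 37.4 and then 22.3 to 54.2 in WT. The difference between M and WT was -2.54 ± 0.43 in RPFs (adjusted p = 0.0305) and -2.46 ± 0.45 in RNA (adjusted p = 0.0231), and the RPF difference was lost without M day 4 mouse 1 or WT day 4 mouse 1. Gabbr2, a subunit of the GABA-B receptor, fell in M RNA from 14.2, 12.8 and 11.9 to 4.13, 7.34 and 4.52 CPM and rose in WT RNA from 15.2, 18.1 and 13.1 to 37.0, 37.6 and 27.3, a difference of -2.42 (adjusted p = 0.000665). Srgap3, which regulates the small GTPase Rac, differed by -2.61 in RNA (adjusted p = 0.0126). In the other direction, Serpinb1a, an inhibitor of neutrophil proteases, rose in M RNA from 4.45, 8.35 and 7.41 to 22.5, 24.8 and 15.2 (1.61; adjusted p = 0.0152). It was at or below 2.52 CPM in every WT RNA library.

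**Figure D4:**
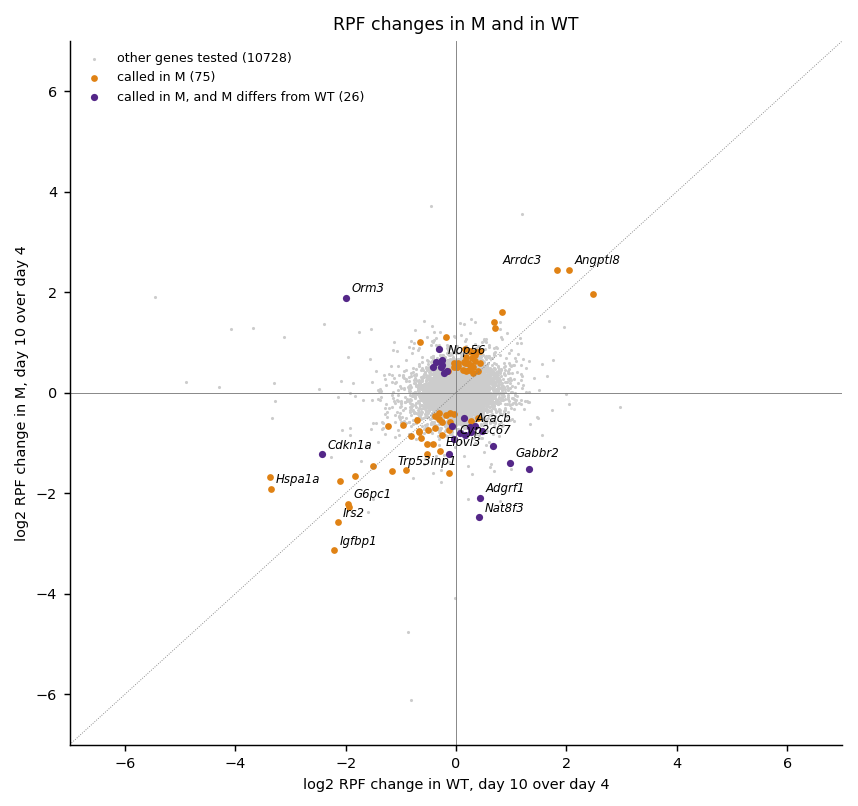
Log2 RPF change from day 4 to day 10 in M (y axis) against that in WT (x axis) for the genes tested in both; each point is a gene, orange where it was called in M and purple where M also differed from WT, and the dotted line marks equal changes. Igfbp1, Irs2, G6pc1, Arrdc3 and Angptl8 moved the same way in both genotypes, Orm3 and Gabbr2 were called in opposite directions, and Adgrf1 was called in M (-2.09) and not in WT (0.43); the test of M and that of the difference use the same M mice.

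Over all genes, the RNA change differed between M and WT for 54 genes higher (0.467%) and 85 lower (0.735%) of 11564. Without M day 10 mouse 3 the differences were 302 higher (2.6%) and 401 lower (3.45%) in RPFs, and 61 higher (0.521%) and 103 lower (0.88%) in RNA. The RPF differences depended on single mice of WT too, with 136 in all (1.18%), 8 without WT day 4 mouse 1, 58 without WT day 4 mouse 3, 54 without WT day 10 mouse 3, 4 without M day 4 mouse 1, 59 without M day 4 mouse 3 and 43 without M day 10 mouse 1. The RNA differences, 139 in all (1.2%), were 33 without M day 4 mouse 1, 43 without M day 4 mouse 3, 51 without M day 10 mouse 1, 44 without WT day 4 mouse 1, 59 without WT day 4 mouse 3, 71 without WT day 10 mouse 1 and 90 without WT day 10 mouse 3.

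No change of TE in M was called with edgeR among 10504 genes (0% in either direction), where 373 had an unadjusted p under 0.05. On simulated counts, this test recovered 54 of 99 genes changed 2-fold in TE and 95 of 100 changed 4-fold. For a difference in TE change between M and WT it recovered 22 of 99 and 80 of 97. DESeq2 called 2 genes. Since both libraries of a mouse come from one lysate, TE was also fitted with the mouse as a block, and 2 genes were then called higher (0.019%) and 3 lower (0.0286%). Hspa1a, the inducible heat shock chaperone HSP70, had 97.6, 59.7 and 87.4 RPF CPM at day 4 and 27.9, 19.0 and 17.5 at day 10, whereas its RNA had 40.1, 32.2 and 45.5 and then 31.8, 33.7 and 33.0. The RPFs were apart between the days and the RNA overlapped, which gave a log2 TE change of -1.67 ± 0.17 with the block (adjusted p = 0.00122) and -1.66 ± 0.29 without it (adjusted p = 0.309). Its neighbour Hspa1b changed in TE by -1.29 with the block, and because the coding sequences are nearly identical the reads of the pair cannot be separated. In WT the RPFs of Hspa1a fell from 261, 286 and 86.8 to 33.0, 12.2 and 15.8, and the difference in TE change between M and WT was not called (0.77 ± 0.74; adjusted p = 1).

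The other TE calls with the block were Arrdc3 (0.74 ± 0.11) and the small GTPase Rap1a (0.65 ± 0.10) higher, and the phospholipid flippase Atp11a (-1.10 ± 0.17) lower, each at an adjusted p of 0.0381. For Arrdc3 both readouts rose, RNA by 1.68 and RPFs by 2.45. Rap1a had 25.6, 27.3 and 24.6 and then 32.6, 32.3 and 34.8 RPF CPM while its RNA went from 81.0, 79.4 and 78.6 to 65.7, 62.8 and 68.4, and was chosen after its values were seen. For Atp11a the RNA rose by 1.15 and the RPFs changed by 0.05. TE differences between M and WT were called for none of 10825 genes with edgeR (0%), with 210 at an unadjusted p under 0.05 and none by DESeq2, for 1 gene, Atp11a at -2.31, with the mouse as a block, and for 2 genes higher (0.0183%) and 74 lower (0.677%) of 10932 without M day 10 mouse 3. Of those 74, 52 were ribosomal protein genes.

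**Figure D5:**
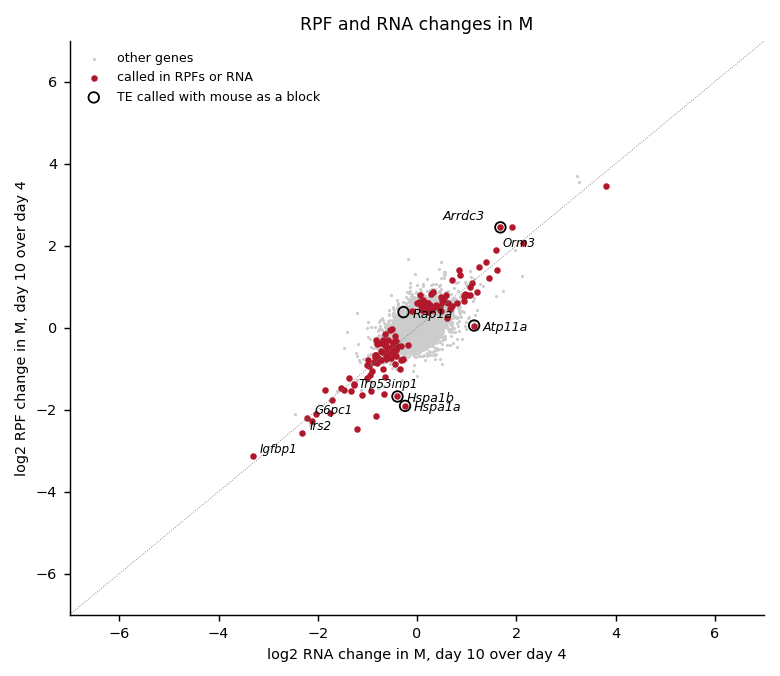
Log2 RPF change (y axis) against log2 RNA change (x axis) from day 4 to day 10 in M; each point is a gene, red where it was called in RPFs or RNA, circled where its TE change was called with the mouse as a block, and the dotted line marks equal changes. Igfbp1, Irs2 and G6pc1 lie near the line, and Hspa1a, at -1.91 in RPFs and -0.24 in RNA, lies below it.

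Markers of the other liver cells gave few calls between the days in M. None of 15 Kupffer cell and macrophage markers, 16 endothelial, 15 stellate and fibroblast, 5 cholangiocyte or 6 lymphocyte and neutrophil markers was called in M RPFs. Over all genes, 0.468% were called lower and 0.441% higher. With M day 10 mouse 3 left out, 2 stellate markers were called lower and 1 cholangiocyte marker higher (over all genes, 4.2% and 3.74%). Their summed RPF CPM overlapped between the days, at 589 to 1547 and 734 to 1031 for Kupffer cells, 990 to 1256 and 949 to 1065 for endothelium, 867 to 1084 and 899 to 982 for stellate cells, 48.2 to 65.9 and 56.9 to 98.5 for cholangiocytes, and 19.8 to 67.8 and 31.1 to 46.3 for lymphocytes and neutrophils. Of 4 erythroid markers Alas2, the erythroid enzyme of heme synthesis, was called lower, at 113, 97.4 and 124 and then 50.5, 56.3 and 56.5 (-1.02 ± 0.11; adjusted p = 0.0261), while the summed erythroid markers overlapped (484 to 690 and 438 to 735). What part these cells had in the results above was not tested.

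With all mice, the remaining lists had at most 1 call each in M RPFs, where 0.441% of all genes were called higher and 0.468% lower. Mbl2, a lectin of the complement system, was the call among 25 coagulation and complement genes (-0.54) and Gstt1, a glutathione transferase, that among 24 conjugation and transport genes (-0.56), and both were lower. Nfil3, a repressor in the clock, was called lower among 18 circadian genes, at 38.3, 46.9 and 42 and then 21.6, 25 and 23.1 (-0.86; adjusted p = 0.0348). Cdkn1a was the call among 18 G1 cyclins and brakes, Igfbp1 that among 15 progenitor and oncofetal markers, Angptl4 that among 24 fatty acid oxidation genes and Nr0b2, higher, that among 21 bile acid genes. No member was called among 8 urea cycle genes, 30 genes of amino acid catabolism, 21 hepatocyte transcription factors, 17 genes of the integrated stress response, 21 ER chaperones, 17 genes of iron and heme, or 29 nuclear genes of oxidative phosphorylation. Most of these counts were larger without M day 10 mouse 3, with 8 coagulation and complement genes called lower, 7 conjugation and transport genes lower and 1 higher, 4 ER chaperones higher and 2 lower, 3 circadian genes lower and 1 higher, 3 G1 cyclins and brakes lower, and 3 genes of amino acid catabolism higher and 1 lower. In the same fit, 2 urea cycle genes were higher, 2 bile acid genes higher and 1 lower, 2 progenitor markers lower and 1 higher, 2 genes of the integrated stress response lower and 1 higher, 6 genes of iron and heme lower and 2 higher, and 1 hepatocyte transcription factor lower. Fatty acid oxidation had 1 gene lower and oxidative phosphorylation none, and 3.74% of all genes were called higher and 4.2% lower.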

How the data were processed

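Each M and WT mouse gave 1 RPF library and 1 library of cytoplasmic RNA from its ground frozen liver. The authors deposited RPF counts per coding sequence, which per the study's methods were made by trimming with Cutadapt, removing duplicates by molecular identifiers with UMI-tools and aligning with BBmap to 1 transcript a gene of GENCODE vM27, leaving out a stretch of codons at each end of the coding sequence. For RNA, the authors deposited RSEM expected counts per isoform, from alignments by Bowtie2. The submitters' processing notes list Bowtie2 2.3.5.1, cutadapt 1.18, RSEM 1.3.3, SAMtools 1.9 and R 4.3.1, and the isoforms' TPM, FPKM and percent columns were not used. Expected counts were summed per gene and rounded (at least 99.92% of those above 0 were whole), and transcripts absent from an RPF file, 2292 to 3019 a library, were taken as 0. Gene symbols were found for 20614 of 20622 gene IDs.

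Counts were filtered with filterByExpr (minimum count 10, minimum total 15), scaled by TMM within each library type and fitted with edgeR 4.0.16 (limma 3.58.1, R 4.3.3). The two-sided quasi-likelihood F test was used throughout, with Benjamini-Hochberg adjustment over all genes tested and a threshold of 0.1. The fit of M used the M libraries of both days, that of WT the WT libraries, and the difference of the changes both genotypes. TE was the interaction of day and library type. Errors are standard errors of the fitted log2 change, and fold changes are ratios of mean CPM. The test was tried on simulated counts, where it recovered 78 of 98 genes changed 2-fold and 96 of 98 changed 4-fold in M RPFs, with 24 false calls among 11250 genes. Each gene was drawn on its own there, so no simulated mouse moved whole lists of genes as M day 10 mouse 3 did. Changes under 2-fold were not simulated. These rates therefore need not hold for the real libraries.

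Genes named were the key members of each list, the called members with the largest changes in a list, and the genes with the largest changes over all genes whose days did not overlap. Called members of a list were also taken only where the days did not overlap, so that trait is no separate result for them. The members and lists were chosen with earlier results of these data known. Genes outside that rule and named after their values were seen were Wdr43, Nop2, Nop16, Rrp15, Wdr75, Heatr1, Tsr1, Dkc1, Rrp12, Trp53, Trf, Rap1a, Pklr, Slco1a1, Cyp2c37, Cyp3a41a, Fth1 and Ftl1. DESeq2 1.42.0, other scalings and filters, all 24 mice in 1 fit, a block and each mouse left out were the alternatives. RPF and RNA of a mouse share its number and lysate, and their deviations from the group means correlated (r between 0.298 and 0.6 in M), so a fit of TE with the mouse as a block is given.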

Additional observations from a re-analysis of the deposited data

Results flagged for a closer look

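The change between the days differed between M and WT, in the test of the difference itself (edgeR, adjusted p under 0.1), for the following named genes, given as the log2 change in M minus that in WT. In RPFs the change was more positive in M for Moxd1 (7.35), Mt2 (5.31), Saa2 (5.07), Lcn2 (4.95), Orm3 (3.87), Sox9 (1.82), Cdkn1a (1.18), Lad1 (1.16), Ppan (0.96), Nop56 (0.89) and Gnl3 (0.79). It was more negative in M for Cyp2c40 (-2.98), Nat8f3 (-2.92), Srgap3 (-2.84), Adgrf1 (-2.54), Abcd2 (-2.41), Gabbr2 (-2.39), Acly (-1.48), Cyp2c68 (-1.09), Me1 (-1.03), Cyp2c69 (-1.01), Acacb (-0.96), Cyp2c67 (-0.91) and Hsd3b5 (-0.68). None of these RPF differences was called in all 12 fits that left out 1 mouse. Mt2, Me1 and Hsd3b5 were called in 3 of the 12, Cdkn1a, Cyp2c67, Lad1 and Lcn2 in 4, Saa2 and Sox9 in 5, Acacb and Nat8f3 in 6, and the others in 7 to 11.

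In RNA it was more positive in M for Moxd1 (7.09), Saa2 (5.94), Saa1 (4.87), Lcn2 (4.68), Scara5 (3.18), Orm3 (2.80), Atp11a (2.77), Orm2 (1.58) and Nop56 (0.76). It was more negative in M for Cdt1 (-3.95), Nat8f7 (-3.53), Clec2h (-3.09), Srgap3 (-2.61), Adgrf1 (-2.46), Gabbr2 (-2.42), Abcd2 (-2.38), Acly (-1.33), Cyp2c69 (-1.26), Cyp2c40 (-1.22), Acacb (-1.16), Cyp2c67 (-1.13), Cyp2c68 (-1.13), Me1 (-1.09) and Gstt1 (-0.96). Of these RNA differences, Gstt1 was called in 3 of the 12 fits that left out 1 mouse, Scara5 in 4, Saa1 and Lcn2 in 5, Cdt1, Nop56 and Orm2 in 6, and the others in 8 to 12. Saa1 and Saa2, the Orm genes, the Cyp2c genes and the Nat8f genes have near-identical relatives among which reads could have been divided.

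The largest of these, Moxd1, a monooxygenase-like protein of the secretory pathway, had 1.17, 14.3 and 4.19 RPF CPM in M at day 4 and 50.3, 10.2 and 14 at day 10, where the days overlapped. In WT it had 9.45, 11.9 and 9.59 and then 0, 0.67 and 0. The size of its fitted difference rests on these WT day 10 values at the floor, so its place as the largest is uncertain.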

How the results depend on the processing

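The M RPF calls, 103 in all, were 233 with DESeq2, 213 with library totals and 8 with the replicate number as a block, and 2 to 911 with a mouse left out. The M RNA calls, 87, were 44 with library totals, 294 without a filter, 33 with all 24 mice in the fit and 36 with the block, and 15 to 349 with a mouse left out. The WT calls, 484 in RPFs and 256 in RNA, were 139 and 81 with all 24 mice, and in RNA 1308 with library totals and 511 without a filter. With a mouse left out they were 206 to 698 and 139 to 431. The RPF differences between M and WT, 136, were 258 with DESeq2, 33 with all 24 mice and 3 with the block, and 4 to 703 with a mouse left out. The RNA differences, 139, were 292 with library totals, 383 without a filter, 28 with all 24 mice and 51 with the block, and 33 to 200 with a mouse left out. Library totals moved the median of all genes to 0.21 in WT RNA and to -0.166 in the RNA difference. Of the 1308 WT RNA calls with library totals 1207 were higher, and of the 292 RNA differences 256 were lower. The cause of these moves was not tested.

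TE calls in M were 0, 2 with DESeq2 and 5 with both libraries of a mouse as a block, and 0 with any mouse left out. TE differences were 0, 1 with that block and 0 to 76 with a mouse left out. The replicate numbers of the 2 days did not pair the mice, which were different animals (r of -0.007, -0.091 and -0.076 between same-numbered M mice in RPFs). Without M day 10 mouse 3 the sign turned for Eef2 and Rpl3 in RPFs and for Cdk1 in RNA, and with a mouse left out their log2 changes ran from -0.74 to 0.93, from -0.36 to 0.69 and from -0.98 to 0.44.

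With 3 mice a day, 1 mouse can decide a call, and most RPF calls here are of that kind. RNA libraries held fewer counts than RPF libraries. Changes of 2-fold were recovered less often than those of 4-fold on simulated data, and a gene that was not called is not thereby shown to be the same at both days.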

Other observations

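Iron and heme genes were not called in M RPFs with all mice, but 8 of 17 were without M day 10 mouse 3, 2 higher and 6 lower (median -0.19, against 0.00 over all genes, of which 3.74% were called higher and 4.2% lower). Tfrc, the transferrin receptor, had 28.7, 36.9 and 27.7 RPF CPM at day 4 and 83.6, 81.3 and 41.1 at day 10, with no overlap, and its RNA was called with all mice (0.70; adjusted p = 0.0274). The ferritin chains went the other way in mice 1 and 2. Fth1 had 602, 493 and 545 and then 174, 225 and 528, and Ftl1 had 91, 65.6 and 77.1 and then 23.5, 33.3 and 80.8, so that mouse 3 lay within the day 4 range for Fth1 and Ftl1. Alas1, the first enzyme of heme synthesis in liver, had 335, 182 and 504 and then 108, 67.8 and 436. The part of M day 10 mouse 3 in these values was not tested beyond leaving it out.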
